A study of Homo sapiens with 4 samples.

Results

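The long-chain acyl-CoA synthetases (ACSL) are the enzymes that join fatty acids of common dietary chain length to coenzyme A. Their transcripts were followed in U2OS cells, a human osteosarcoma line, after siRNA directed at BRPF3, a bromodomain scaffold of histone acetyltransferase complexes. The family has 5 human genes, ACSL1, ACSL3, ACSL4, ACSL5 and ACSL6, and members were all probe sets whose platform annotation carries one of these symbols. This found 4 probe sets, 1 each for ACSL1, ACSL4, ACSL5 and ACSL6, among 16098 named probe sets of 53617 on the array. No probe set carries the symbol ACSL3 in the annotation at hand, and ACSL3 was not analysed here. The family was chosen by the fall of ACSL4 in this very comparison, so the values of its members are given as a description and without a test.

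U2OS cells transfected with BRPF3 siRNA gave 2 arrays, and U2OS cells transfected with a scrambled control siRNA gave the other 2 arrays. Both groups received siRNA at 50 nM with the same lipid reagent, and RNA was taken after 48 hours. All cells were of this 1 line, grown in serum-containing medium, so the control arrays carry the transfection as well. The labels call the arrays of a group biological replicates and do not say how separate the cultures were, so the errors measure the spread between these arrays. BRPF3 itself was not analysed here and the labels name no siRNA sequence, so the depletion was not checked on these arrays and effects of 1 siRNA cannot be told apart from effects of the depletion. Values are RMA values in log2 units, so a difference of 1 is a doubling. Of 11 markers of bone cells 4 were named and bright enough to be tested: VIM, RUNX2, SPP1 and SP7, none of which passed the test. VIM, a general mesenchymal marker, read 10.52 and 10.46 after BRPF3 siRNA and 10.35 and 10.37 after control siRNA. RUNX2, a transcription factor of the bone lineage, read 6.32 and 6.31 after BRPF3 siRNA and 6.56 and 6.39 after control siRNA, and SPP1 (osteopontin) 6.95 and 6.90 after BRPF3 siRNA and 6.73 and 6.60 after control siRNA. SP7, the osteoblast factor osterix, lay close to the intensity bound for testing, with 4.55 and 4.59 after BRPF3 siRNA and 4.95 and 4.56 after control siRNA. IBSP lay below the intensity bound.

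Acyl-CoA synthetases trap a fatty acid inside the cell, and the acyl-CoA they make can be built into phospholipids and triacylglycerol, elongated, or sent to mitochondria and peroxisomes for oxidation. The family members differ in membrane location and in the fatty acids they prefer. ACSL1 is the main form of liver, heart and fat tissue, ACSL5 lies in part on mitochondria and is prominent in the intestine, and ACSL6 is best known from brain and red cell precursors. ACSL4 prefers arachidonic acid and other polyunsaturated fatty acids. Phospholipids that carry such fatty acids are the ones oxidised in ferroptosis, an iron-dependent form of cell death, and ACSL4 is widely used as a marker of sensitivity to it.

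The genes lie apart in the genome, ACSL4 on chromosome X, ACSL1 on chromosome 4, ACSL5 on chromosome 10 and ACSL6 on chromosome 5. Upstream sequence is shown for ACSL4, the member that fell, and for ACSL1, the other member well above the intensity bound, to let the start regions of the family be compared. Each is the 250 bases before a transcription start in the RefSeq promoter table for GRCh38.p14, from the minus strand of chrX:109733258-109733507 for ACSL4 and of chr4:184825969-184826218 for ACSL1. Capitals mark matches, on either strand, to the GC box letters GGGCGG, the cyclic AMP response element core TGACGT, the letters CCAAT or the TATA letters TATAAA.
ACSL4: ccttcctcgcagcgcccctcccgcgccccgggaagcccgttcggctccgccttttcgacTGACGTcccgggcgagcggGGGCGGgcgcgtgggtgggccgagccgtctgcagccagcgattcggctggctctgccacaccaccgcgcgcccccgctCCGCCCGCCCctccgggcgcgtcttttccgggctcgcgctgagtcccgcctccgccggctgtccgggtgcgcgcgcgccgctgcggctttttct
ACSL1: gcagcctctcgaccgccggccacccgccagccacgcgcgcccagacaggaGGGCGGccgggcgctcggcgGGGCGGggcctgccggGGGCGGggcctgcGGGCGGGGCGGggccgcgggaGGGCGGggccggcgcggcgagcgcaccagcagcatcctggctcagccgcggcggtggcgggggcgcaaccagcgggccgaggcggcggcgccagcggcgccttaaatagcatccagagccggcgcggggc

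The ACSL4 window held 3 GC box matches, of which a pair overlap, and 1 match to the cyclic AMP response element core, 191 bases before the start. Among all 35116 windows of this length in the table, 42.6% held a GC box match and 7.1% held that core. The ACSL1 window held 6 GC box matches, of which a pair likewise overlap, and no match to the core. Its G and C content was 83.6%, against 77.2% for ACSL4. It is the richest in G and C of the ACSL1 windows, the others holding from 46.8% to 61.2%. ACSL1 has 5 starts in the table, ACSL5 has 2 and ACSL6 has 7. GC box matches were found before 2 of the 5 ACSL1 starts, 0 of the 2 ACSL5 starts and 3 of the 7 ACSL6 starts. Matches to the core were found before 0, 0 and 2 of them. Some ACSL6 windows overlap, so the 2 core matches are the same letters, and a GC box match is likewise counted before 2 starts. The letters CCAAT, found in 32.0% of all windows, were present before 1 ACSL1 start and before no start of the other members, and the TATA letters, found in 10.7%, before none of the 15. These matches describe the letters of these windows and say nothing of binding.

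ACSL4 was the member that moved. Its probe set (17113293) read 7.37 and 7.44 on the BRPF3 siRNA arrays, against 8.71 and 8.72 on the control siRNA arrays. Both BRPF3 siRNA arrays were low and both control arrays high, with a gap of 1.27 between the nearest arrays of the groups. The means were 7.41 ± 0.05 after BRPF3 siRNA and 8.72 ± 0.01 after control siRNA (SD, n = 2 each). ACSL4 thus fell by 1.31 ± 0.08 on the log2 scale (SE from limma with shared variance, n = 2 arrays in each group, also for later differences), to 0.403 of its control level. It took place 8 from the lowest among the 10696 genes bright enough to be tested, and 0.07% of them had a lower difference. The BRPF3 siRNA arrays stayed 2 log2 units and more above the intensity bound of 4.59, so this fall was measured well inside the range of the array.

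ACSL1 lay slightly higher after BRPF3 siRNA. Its probe set (16982047) read 7.65 and 7.74 after BRPF3 siRNA and 7.59 and 7.56 after control siRNA. The groups did not overlap, but the gap of 0.05 between them was smaller than the SD of the BRPF3 siRNA arrays, 0.06. The difference was 0.12 ± 0.08, a ratio of 1.08, and 72.54% of tested genes had a lower one. It was 0.07 without BRPF3 siRNA replicate 2 and 0.16 without BRPF3 siRNA replicate 1.

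ACSL5 was dim. The ACSL5 probe set (16709268) read 4.87 and 4.72 after BRPF3 siRNA and 4.94 and 5.11 after control siRNA, close above the bound. The BRPF3 siRNA arrays were lower, with a gap of 0.07 between the groups against SDs of 0.11 and 0.12 within them. Its difference was -0.23 ± 0.10, and it lay between -0.32, without control siRNA replicate 1, and -0.15, without control siRNA replicate 2. A lower difference was found for 20.47% of tested genes.

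ACSL6 was dimmer still, at 3.91 and 4.05 after BRPF3 siRNA and 3.98 and 4.23 after control siRNA (probe set 16999654). These groups overlapped. The mean lay under the intensity bound, where differences are compressed, so ACSL6 was not among the tested genes. Its difference was -0.12 ± 0.14, with the SE taken from a fit over all probe sets, and it was -0.25 without control siRNA replicate 1, 0.0019 without control siRNA replicate 2, -0.05 without BRPF3 siRNA replicate 1 and -0.19 without BRPF3 siRNA replicate 2.

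**Figure D1:**
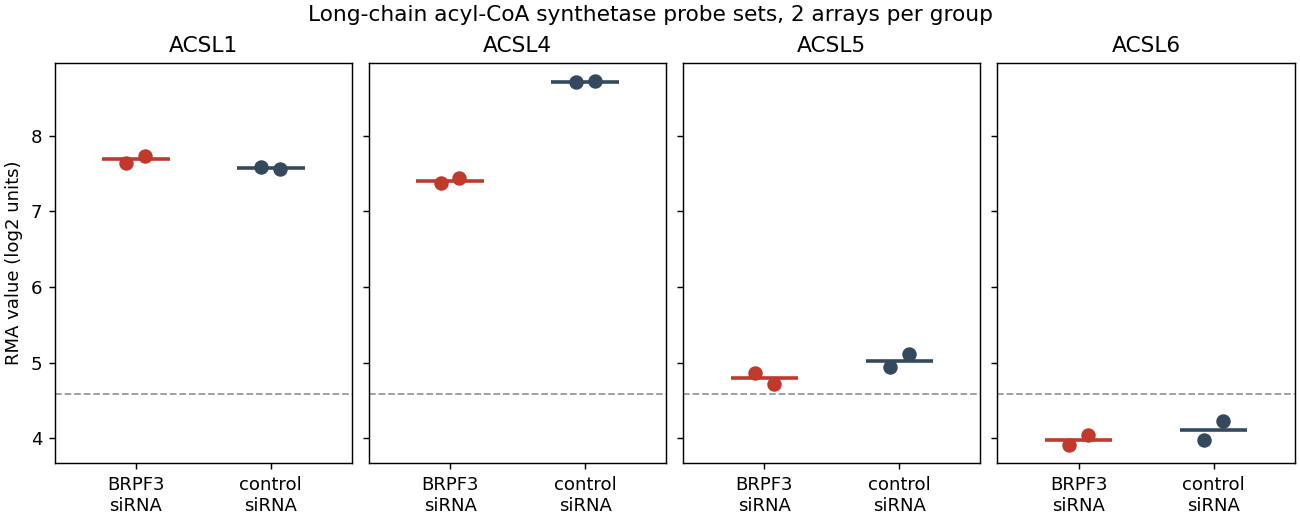
RMA values (log2 units, vertical axis) of the 4 named ACSL probe sets on the 2 BRPF3 siRNA arrays (red, left) and the 2 control siRNA arrays (dark, right). Points are arrays, bars are group means and the dashed line is the intensity bound of 4.59. ACSL4 lies at 7.37 and 7.44 after BRPF3 siRNA and at 8.71 and 8.72 after control siRNA, while the groups of the other members lie close together. Heights of different probe sets are not comparable.

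Since each probe set has its own response, levels of different members cannot be set against each other, but the change of a ratio within an array can. The log2 ratio of the ACSL4 to the ACSL1 probe set was -0.27 and -0.29 on the BRPF3 siRNA arrays, against 1.12 and 1.16 on the control siRNA arrays. The change, BRPF3 siRNA minus control siRNA, was -1.43. The ratio of ACSL4 to ACSL5 was 2.50 and 2.73 on the BRPF3 siRNA arrays, against 3.78 and 3.61 on the control siRNA arrays, a change of -1.08. ACSL5 lay close above the intensity bound, so the size of this change is uncertain. No ratio is given for ACSL6, which lay under the bound. In both of these pairs the BRPF3 siRNA arrays lay below the control arrays. ACSL4 was chosen for its fall, so these ratios describe its size and test nothing.

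Over all tested genes 15.8% were called changed at an adjusted p under 0.05 in limma, 6.32% risen and 9.44% fallen, and 63.2% had arrays that did not overlap between the groups, 27.3% with the BRPF3 siRNA arrays higher and 35.9% with them lower. Of the 3 ACSL genes tested 1 was called, and all 3 had arrays that did not overlap, ACSL1 with the BRPF3 siRNA arrays higher and ACSL4 and ACSL5 with them lower. With the fall of ACSL4 known beforehand, these counts are given for completeness. The middle 90% of tested genes, between the 5th and the 95th percentile, had differences from -0.49 to 0.44, with a median of -0.03. ACSL1 and ACSL5 lay inside this range and ACSL4 far below it.

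**Figure D2:**
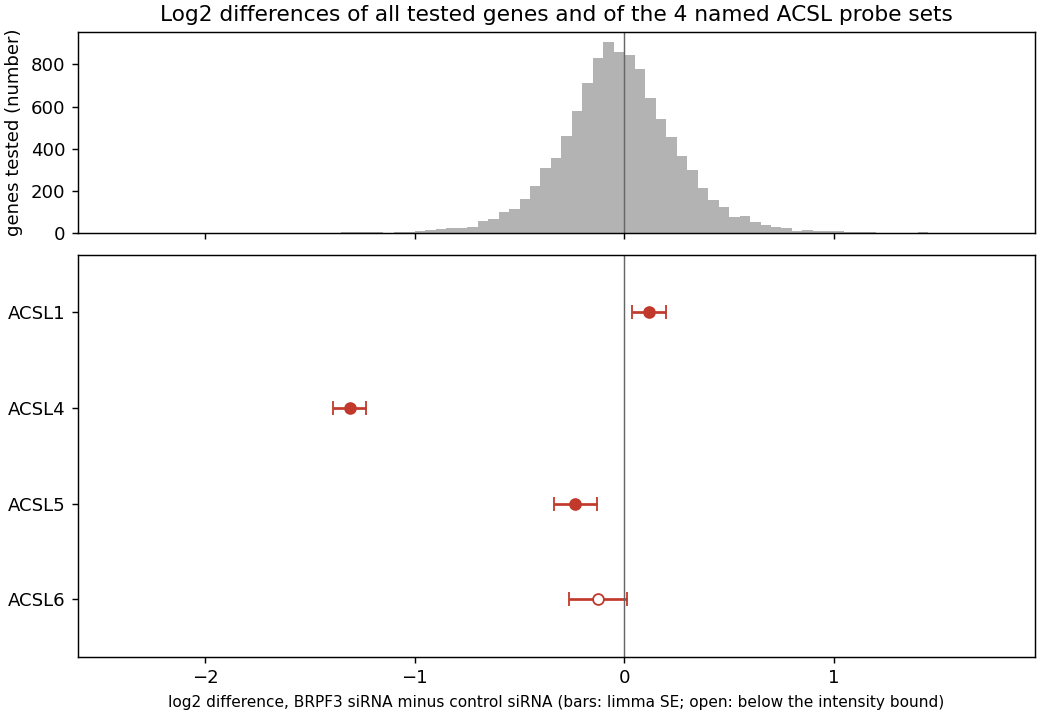
Log2 differences, BRPF3 siRNA minus control siRNA (horizontal axis). The upper panel is a histogram of 10696 tested genes, and the lower panel gives the ACSL probe sets with limma's SE, the open point being ACSL6, which lay under the intensity bound. ACSL4 lies at -1.31, outside the bulk of the genes, and ACSL1, ACSL5 and ACSL6 lie at 0.12, -0.23 and -0.12, within it.

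The 5 tested genes whose 4 values followed ACSL4 most closely were found by the Euclidean distance between values centred on each gene's mean. They were RASSF3 (distance 0.11), the antisense RNA SH3PXD2A-AS1 (0.14), PGAM1 (0.15), KIF3B (0.15) and MIPEP (0.16). RASSF3 is a Ras association domain protein, PGAM1 a glycolytic enzyme, KIF3B a kinesin-2 motor and MIPEP a mitochondrial peptidase. RASSF3 read 5.90 and 6.03 after BRPF3 siRNA and 7.22 and 7.37 after control siRNA. With 4 arrays in 2 groups, likeness to ACSL4 amounts to a fall of like size, and the differences of the 5 genes ran from -1.40 to -1.31. None of them belongs to the lists on lipid metabolism below. PGAM1 has near-identical copies in the genome, PGAM4 among them. Which of these its probe set (16769440) reads was not tested, so PGAM1's own share of the signal is uncertain.

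**Figure D3:**
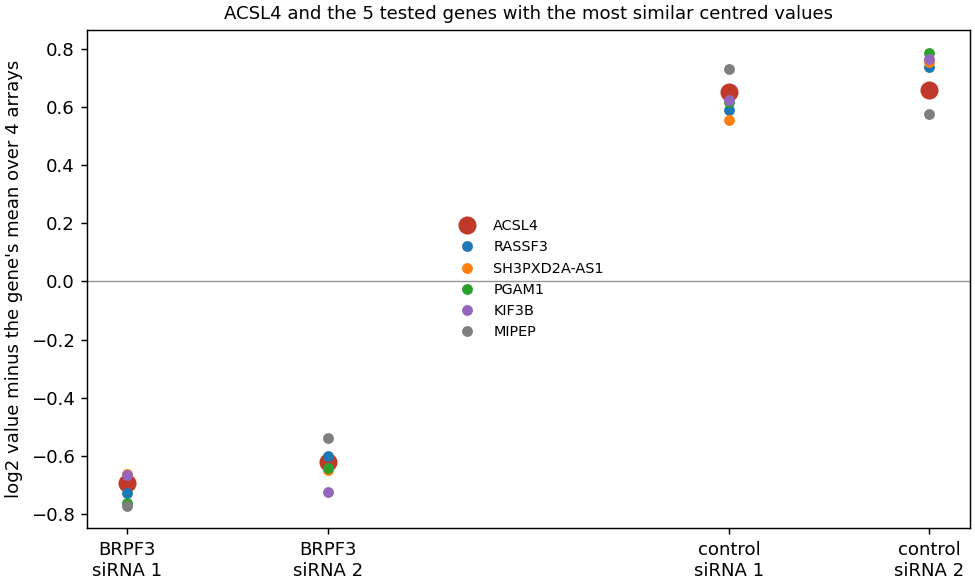
Log2 values minus each gene's mean over the 4 arrays (vertical axis) for ACSL4 (large red points) and the 5 tested genes nearest to it, on the BRPF3 siRNA arrays (left) and the control siRNA arrays (right). ACSL4 lies at -0.69 and -0.62 after BRPF3 siRNA and at 0.65 and 0.66 after control siRNA, and the points of the other genes lie around it.

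The nearest tested genes on either side of ACSL4 on chromosome X did not pass the test. On one side NXT2, an export factor, differed by 0.08 ± 0.09 (adjusted p = 0.545) and VSIG1 by 0.10 ± 0.16 (adjusted p = 0.681). On the other side TMEM164, which is reported as an acyltransferase of polyunsaturated ether phospholipids, read 6.76 and 6.78 after BRPF3 siRNA and 6.94 and 6.90 after control siRNA. Its arrays did not overlap, and its difference of -0.15 ± 0.08 did not pass the test (adjusted p = 0.230). The probe set of MIR3978, which lies within TMEM164, differed by 0.0047 ± 0.09 (adjusted p = 0.973).

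Around the ACSL step, 14 lists of genes were described, from the other acyl-CoA synthetases to the pathways that use acyl-CoA. Of 294 distinct genes listed, 177 were named and 148 tested. In all 16 rose, 11 fell and 121 did not pass, which is 18.2% called against 15.8% of all tested genes. Their median difference was -0.04, against -0.03 for all tested genes. The number called was 12 and 14 without BRPF3 siRNA replicate 1 and 2, and 0 without either control siRNA replicate. Among all genes the count without a control array was also 0 in limma, with 2446 and 2477 genes at an unadjusted p under 0.05. No gene kept its call when either control siRNA array was left out. Losses named below for a BRPF3 siRNA array come on top of that. After quantile normalization 19 list genes rose and 9 fell. Over all tested genes 59.9% of the calls were falls, and 48.4% after quantile normalization.

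Among the other acyl-CoA synthetases, 9 of the 13 named genes for short and medium chains were tested, with a median difference of -0.04. Of these 0 rose, 1 fell and 8 did not pass, 11.1% called against 15.8% of all tested genes. The fallen gene was ACSM3, a medium-chain synthetase of mitochondria, which read 6.11 and 6.10 after BRPF3 siRNA and 6.55 and 6.47 after control siRNA. ACSM3 fell by 0.40 ± 0.08 (adjusted p = 0.0295), a call lost whichever array was left out (adjusted p from 0.0733 to 0.163). ACSS2, which activates acetate in the cytosol and nucleus, differed by -0.04 ± 0.12 (adjusted p = 0.857), and ACSF3, the mitochondrial malonyl-CoA synthetase, by -0.06 ± 0.08 (adjusted p = 0.666). ACSBG1 and ACSBG2, the bubblegum synthetases of very long chains, were the named members of that list and both lay under the intensity bound. ACSBG1 read 4.25 and 3.80 after BRPF3 siRNA and 3.74 and 3.92 after control siRNA. The SLC27A transporters were not analysed here.

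Phospholipid acyltransferases take the acyl-CoA that ACSL4 makes, and their list also holds phospholipases A2. Of its 10 tested members 2 rose and 0 fell, 20% called against 15.8% of all tested genes. MBOAT1, which adds fatty acids to lysophospholipids and is reported to favour monounsaturated ones, read 8.33 and 8.35 after BRPF3 siRNA and 7.69 and 7.85 after control siRNA. The difference of MBOAT1 was 0.57 ± 0.09 (adjusted p = 0.0182). LCLAT1, an acyltransferase that acts on lysocardiolipin, read 8.68 and 8.59 after BRPF3 siRNA and 8.10 and 8.12 after control siRNA, a rise of 0.53 ± 0.08 (adjusted p = 0.0180). LPCAT3, which places arachidonoyl groups into phospholipids downstream of ACSL4, differed by 0.11 ± 0.08 (adjusted p = 0.356). MBOAT1 lost its call whichever array was left out (adjusted p from 0.0512 to 0.109), and LCLAT1 lost it without BRPF3 siRNA replicate 1 (adjusted p = 0.0524).

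Synthesis of triacylglycerol and storage in lipid droplets had 3 risen and 1 fallen gene of 23 tested, with a median of 0.05. That is 17.4% called, near the 15.8% of all tested genes. GPAT3, which starts glycerolipid synthesis from acyl-CoA, read 7.42 and 7.65 after BRPF3 siRNA and 6.64 and 6.71 after control siRNA, a rise of 0.86 ± 0.10 (adjusted p = 0.0123). LPIN2, a phosphatidate phosphatase, read 8.83 and 8.94 after BRPF3 siRNA and 8.12 and 8.14 after control siRNA, a rise of 0.75 ± 0.08 (adjusted p = 0.00985). FITM2, a membrane protein of the endoplasmic reticulum needed for lipid droplet budding, rose by 0.68 ± 0.08 (adjusted p = 0.0113). These 3 genes kept their calls without either BRPF3 siRNA array but lost them without either control array. PNPLA3, a droplet-bound acylhydrolase, fell by 0.42 ± 0.09 (adjusted p = 0.0347) and lost its call whichever array was left out (adjusted p from 0.0646 to 0.177). The last enzymes of the pathway did not pass, DGAT1 at 0.26 ± 0.09 (adjusted p = 0.0962) and DGAT2 at -0.20 ± 0.08 (adjusted p = 0.140), nor did the droplet coat protein PLIN2 at 0.15 ± 0.08 (adjusted p = 0.223). DGAT1 passed with an intensity trend in eBayes (adjusted p = 0.0182) and with the filter at the 75th percentile (adjusted p = 0.0387).

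**Figure D4:**
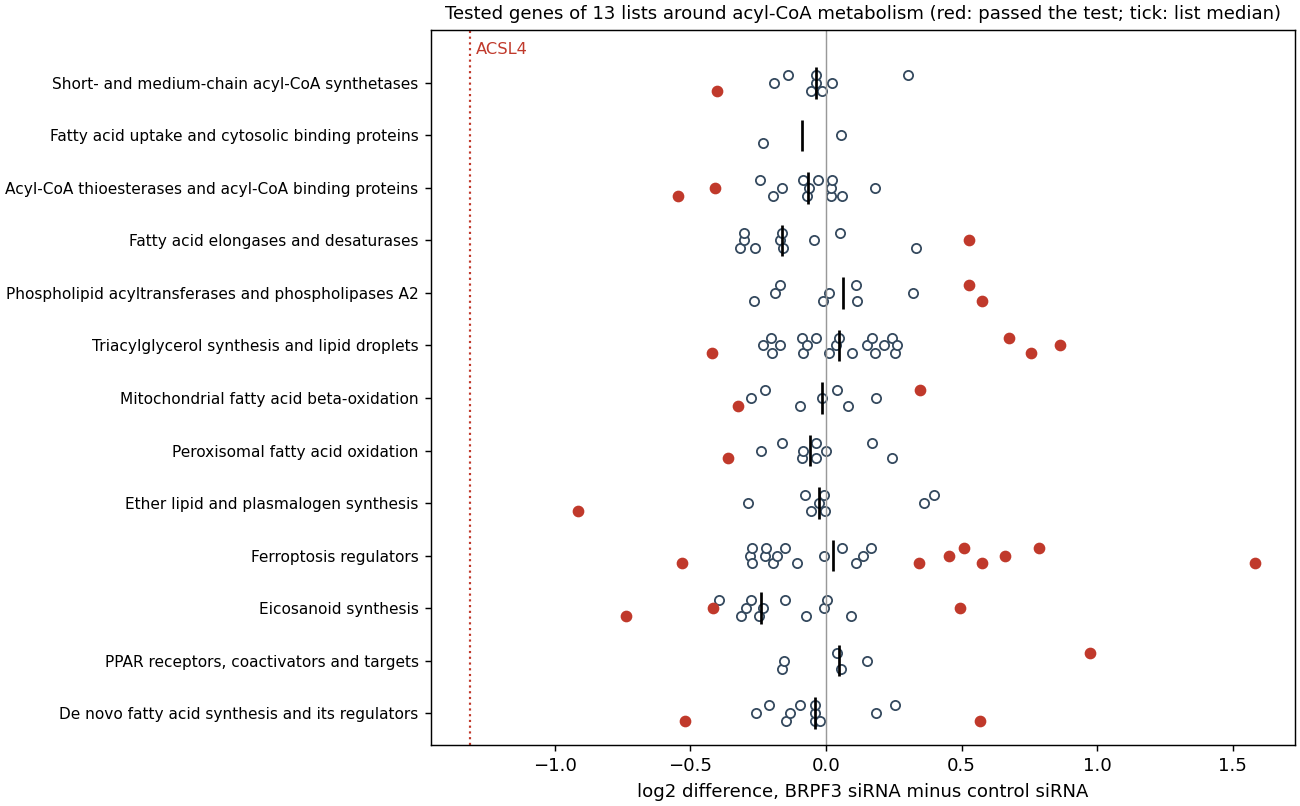
Log2 differences, BRPF3 siRNA minus control siRNA (horizontal axis), of the tested genes of 13 lists (rows). Each point is a gene, filled red where it passed the test, black ticks are list medians and the dotted line marks ACSL4 at -1.31. None of the listed genes lies as low as ACSL4, the nearest being GNPAT at -0.91, and HMOX1 lies highest at 1.58.

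Elongases and desaturases act on fatty acids once these are joined to coenzyme A. Of 11 tested 1 rose, 0 fell and 10 did not pass, 9.09% called against 15.8% of all tested genes. The median of -0.16 lay below that of all genes. ELOVL7, an elongase of saturated acyl-CoA, read 7.05 and 7.14 after BRPF3 siRNA and 6.50 and 6.63 after control siRNA, a rise of 0.53 ± 0.09 (adjusted p = 0.0211). ELOVL5, which elongates polyunsaturated fatty acids, differed by -0.30 ± 0.08 and did not pass (adjusted p = 0.0612), but passed with an intensity trend (adjusted p = 0.00945) and with the filter at the 75th percentile (adjusted p = 0.0201). The desaturases FADS1 (-0.16 ± 0.09, adjusted p = 0.264) and FADS2 (-0.26 ± 0.10, adjusted p = 0.123) did not pass. ELOVL7 lost its call without BRPF3 siRNA replicate 2 (adjusted p = 0.0618).

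In the list of acyl-CoA thioesterases and acyl-CoA binding proteins, 0 of 14 tested genes rose and 2 fell. This makes 14.3% called, against 15.8% of all tested genes. ACOT8, a thioesterase of peroxisomes, read 5.56 and 5.26 after BRPF3 siRNA and 5.95 and 5.96 after control siRNA and fell by 0.54 ± 0.12 (adjusted p = 0.0349), a call lost without BRPF3 siRNA replicate 2 (adjusted p = 0.0696). BAAT, which conjugates bile acids in liver, fell by 0.41 ± 0.09 (adjusted p = 0.0362), with BRPF3 siRNA values of 4.36 and 4.46 under the intensity bound, so that its size is uncertain. The call of BAAT was lost whichever array was left out (adjusted p from 0.0664 to 0.180) and with an intensity trend (adjusted p = 0.0818). Both tested members of the uptake and binding list, FABP5 and MFSD2A, did not pass.

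Oxidation in mitochondria had 1 risen and 1 fallen gene of 9 tested, 22.2% called against 15.8% of all tested genes. ECI1, an enoyl-CoA isomerase, rose by 0.35 ± 0.09 (adjusted p = 0.0483), and ACAA2, the thiolase of the last step, fell by 0.33 ± 0.08 (adjusted p = 0.0424). CPT1A, which commits acyl-CoA to the mitochondrion, read 4.65 and 5.36 after BRPF3 siRNA and 4.80 and 5.14 after control siRNA, overlapping values with a difference of 0.04 ± 0.24 (adjusted p = 0.919). CPT2, its partner in the inner membrane, differed by -0.22 ± 0.11 (adjusted p = 0.213). Among 10 tested genes of peroxisomal oxidation 0 rose and 1 fell (10% called), the reductase PECR (-0.36 ± 0.09, adjusted p = 0.0486). ECI1 (adjusted p from 0.0712 to 0.218), ACAA2 (0.0891 to 0.188) and PECR (0.0710 to 0.223) each lost the call whichever array was left out. ACAA2 also lost it with the replicate number as a block (adjusted p = 0.0547), after quantile normalization (0.0709) and after cyclic loess (0.0703). PECR also lost it after quantile normalization (adjusted p = 0.0528), after cyclic loess (0.0537) and when every named probe set was tested on its own (0.0513), and ECI1 under that last setting (adjusted p = 0.0512).

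GNPAT was the listed gene that fell furthest. This acyltransferase of peroxisomes uses a long-chain acyl-CoA to start the synthesis of ether lipids, which include the plasmalogens. It read 8.71 and 8.76 after BRPF3 siRNA, against 9.58 and 9.71 after control siRNA, so both BRPF3 siRNA arrays lay low. GNPAT fell by 0.91 ± 0.09 (adjusted p = 0.00878), to 0.531 of its control level. Of the 9 tested genes of ether lipid synthesis it was the 1 that passed, 11.1% against 15.8% of all tested genes. The list's median was -0.02. AGPS, the enzyme of the next step, differed by -0.0056 ± 0.08 (adjusted p = 0.966) and FAR1, which supplies the fatty alcohol, by -0.08 ± 0.08 (adjusted p = 0.557). These last 2 were chosen after their values were seen.

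Among ferroptosis regulators 7 of 22 tested genes rose and 1 fell, 36.4% called against 15.8% of all tested genes. The list was written with the rise of HMOX1 in these data known, and no set test was made. ACSL4, which fell, is not a member of this list and is not part of these counts. HMOX1, which frees iron from heme, rose by 1.58 ± 0.08 (adjusted p = 0.00756). GPX4, the peroxidase that removes phospholipid hydroperoxides, read 10.47 and 10.36 after BRPF3 siRNA and 10.04 and 10.10 after control siRNA. Its rise of 0.34 ± 0.08 (adjusted p = 0.0456) passed narrowly and was lost with the replicate number as a block (adjusted p = 0.0588) and whichever array was left out (adjusted p from 0.0711 to 0.209). GCH1, which makes the antioxidant cofactor tetrahydrobiopterin, read 6.99 and 7.22 after BRPF3 siRNA and 6.41 and 6.48 after control siRNA, a rise of 0.66 ± 0.10 (adjusted p = 0.0181). CBS, an enzyme that leads homocysteine towards cysteine, rose by 0.51 ± 0.08 (adjusted p = 0.0195), and ALOXE3, a lipoxygenase of skin, by 0.79 ± 0.15 (adjusted p = 0.0283). MBOAT1 stands in this list as well. The 7th gene was TXNRD1, a thioredoxin reductase, at 0.45 ± 0.09 (adjusted p = 0.0306), named after its values were seen, with its call lost without BRPF3 siRNA replicate 2 (adjusted p = 0.0785). NOX4, an NADPH oxidase that makes hydrogen peroxide, was the 1 fallen gene of the list (-0.53 ± 0.09, adjusted p = 0.0210). CBS (adjusted p = 0.0580), ALOXE3 (0.0787) and NOX4 (0.0618) lost their calls without BRPF3 siRNA replicate 1. The median of the list was 0.03. The number called in the list was 3 and 5 without BRPF3 siRNA replicate 1 and 2 and 0 without either control array.

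Arachidonic acid, the preferred substrate of ACSL4, is also the source of eicosanoids. Of 14 tested genes of eicosanoid synthesis 1 rose and 2 fell, 21.4% called against 15.8% of all tested genes. The difference was below 0 for 11 of these 14 genes, a larger share than the about 55% of all tested genes. Their median was -0.24, against -0.03 for all tested genes. PTGS2, the inducible cyclooxygenase, read 5.84 and 5.62 after BRPF3 siRNA and 6.62 and 6.32 after control siRNA and fell by 0.74 ± 0.13 (adjusted p = 0.0250), a call lost without BRPF3 siRNA replicate 2 (adjusted p = 0.0718). PTGR2, a prostaglandin reductase, fell by 0.42 ± 0.09 (adjusted p = 0.0356). ALOX5, which starts leukotriene synthesis, read 7.81 and 7.81 after BRPF3 siRNA and 7.27 and 7.36 after control siRNA, a rise of 0.50 ± 0.08 (adjusted p = 0.0198). PTGR2 (adjusted p from 0.0683 to 0.178) and ALOX5 (0.0536 to 0.125) lost their calls whichever array was left out.

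The PPAR receptors sense fatty acids, and ACSL1 is a known target of PPARA in rodent liver. PPARG, the receptor of fat cell formation, read 5.94 and 6.35 after BRPF3 siRNA and 5.13 and 5.21 after control siRNA and rose by 0.98 ± 0.14 (adjusted p = 0.0165). It was the 1 gene of 6 tested in the list that passed, 16.7% called against 15.8% of all tested genes. PPARA (-0.16 ± 0.09, adjusted p = 0.266) and PPARD (-0.16 ± 0.10, adjusted p = 0.339) did not pass. In the list of de novo fatty acid synthesis 1 of 13 rose and 1 fell, 15.4% called. MID1IP1, which promotes the assembly of acetyl-CoA carboxylase, rose by 0.57 ± 0.12 (adjusted p = 0.0358) and INSIG2, which holds the sterol sensor SCAP in the endoplasmic reticulum, fell by 0.52 ± 0.10 (adjusted p = 0.0265). MID1IP1 lost its call without BRPF3 siRNA replicate 2 (adjusted p = 0.0830) and when a gene's probe sets were averaged (adjusted p = 0.0716), and INSIG2 without BRPF3 siRNA replicate 1 (adjusted p = 0.0721).

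Markers of other cell types were few among the tested genes. Of 3 tested hepatocyte and 2 tested adipocyte markers 0 rose and 0 fell, and albumin (ALB) lay under the intensity bound at 3.47 and 3.67 after BRPF3 siRNA and 3.61 and 3.46 after control siRNA. KRT18 was the 1 of 5 tested epithelial markers that fell (-0.49 ± 0.09, adjusted p = 0.0231). The number of its probe set, 16938654, lies between those of PPARG (16937741) and ABHD5 (16939815), far from that of KRT8 (16765134). Whether this probe set reads KRT18 itself or a related sequence was not tested. Of the other epithelial markers, named here after their values were seen, EPCAM read 8.14 and 8.22 after BRPF3 siRNA and 7.94 and 7.90 after control siRNA, higher in both BRPF3 siRNA arrays but short of the threshold (0.27 ± 0.08, adjusted p = 0.0754). CLDN4 was lower in both BRPF3 siRNA arrays and also short of it (-0.53 ± 0.15, adjusted p = 0.0690), and KRT8 and KRT19 differed by -0.05 ± 0.10 and 0.04 ± 0.13. LAPTM5 fell among 2 tested leukocyte markers (-0.88 ± 0.13, adjusted p = 0.0170), while CD68 differed by 0.01 ± 0.14 (adjusted p = 0.959). The call of KRT18 was lost without BRPF3 siRNA replicate 2 (adjusted p = 0.0639) and that of LAPTM5 without BRPF3 siRNA replicate 1 (adjusted p = 0.0531). Their part in the results above was not tested. In bulk RNA, fewer cells with a transcript and less of it per cell cannot be told apart.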

How the data were processed

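Gene expression was measured on Affymetrix whole-transcript arrays in 4 samples, 2 per group, with groups and replicate numbers taken from the sample titles. The authors deposited log2 values for 53617 probe sets, made with RMA per the submitters' processing notes. RMA corrects background, normalizes between arrays and summarises probes, so any shift common to all transcripts is lost and differences of dim probe sets are compressed. Not given in the sources used here: its version, its settings and how probe sets were defined.

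The values were used as deposited. The platform annotation names 16098 probe sets with 1 gene symbol, 0 with several and leaves 37519 unnamed here. All 16098 identifiers matched the RefSeq table of GRCh38.p14, which changed 0 symbols. For each of 14884 genes the brightest probe set was taken, and genes with a mean of at least 4.59, the median of all probe sets, were tested (10696 genes). limma 3.58.1 in R 4.3.3 (lmFit, eBayes, two-sided, group as factor) gave differences with moderated SEs and Benjamini-Hochberg adjusted p-values over all genes tested, called at 0.05. Each gene had 2 residual degrees of freedom, to which the prior added 3.81. An exact permutation of 2 arrays against 2 cannot go below a p of 0.333. Precision is limited by the number of arrays.

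The members, lists and tests were chosen with earlier results of these data known. Named genes were the ACSL genes, up to 6 changed genes per list by size, 22 genes fixed by name, the 5 genes most like ACSL4 and the 2 nearest tested genes on each side of it. Of the 22, SLC27A1, SLC27A3, SLC27A4, SLC7A11, AIFM2 and PLA2G4A were not analysed here. Alternatives were other normalizations, filters, probe set rules, eBayes settings, thresholds, the replicate number as a block and leaving out each array.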

Additional observations from a re-analysis of the deposited data

How the results depend on the processing

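The difference of ACSL4 was -1.26 after quantile normalization and -1.26 after cyclic loess, against -1.31 on the deposited values, and lay between -1.35 and -1.27 when single arrays were left out. Under the other settings run for the ACSL probe sets their differences moved by less than the spread between replicates. The number of changed genes, 1686 on the deposited values, was 2645 with an intensity trend, 1 without moderation (2469 at an unadjusted p under 0.05), 409 without an intensity filter and 2877 at an adjusted p under 0.1, and lay between 0 and 791 when single arrays were left out. In the same settings the number of changed list genes, 27 on the deposited values, was 50, 0, 6 and 47, and lay between 0 and 14 when single arrays were left out. It was 41 with the filter at the 75th percentile. With an array left out, the remaining array of its group is taken to vary as the arrays of the other group do. Of 34 changed genes named beside ACSL4, 10 lost their call whichever array was left out, 12 kept it without either BRPF3 siRNA array, and 34 lost it without either control array. Without an intensity filter 22 lost it, and without moderation 34. None changed direction in any setting.

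The arrays share replicate numbers, but the labels do not say that a number marks a shared culture or day. Deviations of same-numbered arrays correlated at 0.141 over the tested genes. With the replicate block 1604 genes changed, 26 of them list genes, and of the named genes ACAA2 and GPX4 lost their call.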
